A study of Mus musculus with 6 samples.

Results

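The Hox genes are the genes of the mouse Hoxa, Hoxb, Hoxc and Hoxd clusters, and every gene with one of these names followed by a number was taken from the deposited table. There were 36 such genes among 18089 genes (11 of Hoxa, 9 of Hoxb, 9 of Hoxc and 7 of Hoxd), carried by 68 transcripts. *Hoxb13*, *Hoxd12* and *Hoxd13* were not analysed here. RNA of the ischemic gastrocnemius, the large calf muscle, had been sequenced from 3 wild-type (WT) mice and 3 *Gpr174*-/Y mice, whose libraries are labelled GPR174-KO. All 6 mice were C57BL/6 males aged 8 to 10 weeks, per the study's methods, and the muscle was taken 7 days after hindlimb ischemia (HLI), made by ligating the femoral artery of the left leg and removing the segment between the knots. *Gpr174* encodes a G protein-coupled receptor and lies on the X chromosome, so a male has a single copy. The methods limit the knockout to no cell type or age, and no muscle without HLI was sequenced, so a difference between the groups that preceded the injury and one that followed it cannot be told apart. The question addressed here was how Hox transcripts, which mark the position of a tissue along the body and the limb, differed between the injured muscles of both genotypes.

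Hox genes encode transcription factors that bind DNA through a homeodomain, the protein part encoded by the homeobox. They stand in a row in each of the clusters, numbered from 1 to 13 along it, and genes with the same number in different clusters, the paralogs, descend from one ancestral gene. In the embryo the low numbers are used towards the head and the high numbers towards the tail and the tip of the limb. Genes of groups 9 and 10 are needed for the upper limb segment, those of group 11 for the lower segment, and those of group 13 for the hand and foot. Adult fibroblasts and muscle stem cells keep part of this pattern, so Hox transcripts can be found in grown muscle.

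Total counts were between 18417077 and 19394469 per library, and 3 counts, taken as the smallest detectable number, corresponded to 0.14 to 0.187 CPM (counts scaled to library size with edgeR's TMM factors), which covers counting error only. The counts of *Gpr174* itself were 8, 2 and 5 for WT against 1, 0 and 0 for *Gpr174*-/Y, so the low counts lay on the side that the labels give. Replicate 2 lay between replicates 1 and 3 for 75.6% of 11392 genes with a mean of at least 100 counts in the WT group and for 67.0% in the *Gpr174*-/Y group. For the tested Hox genes this held for 17 of 30 in the WT group and 18 of 30 in the *Gpr174*-/Y group. If the 3 libraries of a group were interchangeable and genes varied independently, each would be the middle one about equally often. The cause was not tested, and the p-values below take the libraries of a group as independent. The results are therefore also given with replicates 1 and 3 of each group only. The labels do not tie the libraries to litters, cages or sequencing batches, and p-values measure only the spread between these samples.

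The homeobox is the stretch in which paralogs are most alike, and it is shown here for group 10, whose members are described most below, because their reads had to be told apart by the base differences. The sequences were read from GENCODE M21 transcripts (GRCm38), 180 bases each, 5′ to 3′, and capitals mark the 50 positions at which the 3 genes are not all identical.
*Hoxa10*: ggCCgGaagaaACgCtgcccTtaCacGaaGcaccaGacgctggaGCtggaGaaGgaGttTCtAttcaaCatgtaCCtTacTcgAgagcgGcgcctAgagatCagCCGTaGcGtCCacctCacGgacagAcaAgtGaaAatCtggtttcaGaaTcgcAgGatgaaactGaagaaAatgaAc
*Hoxc10*: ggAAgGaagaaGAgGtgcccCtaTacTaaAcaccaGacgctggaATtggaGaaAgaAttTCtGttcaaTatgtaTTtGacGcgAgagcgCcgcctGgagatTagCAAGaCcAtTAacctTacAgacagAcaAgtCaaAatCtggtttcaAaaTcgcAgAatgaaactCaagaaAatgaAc
*Hoxd10*: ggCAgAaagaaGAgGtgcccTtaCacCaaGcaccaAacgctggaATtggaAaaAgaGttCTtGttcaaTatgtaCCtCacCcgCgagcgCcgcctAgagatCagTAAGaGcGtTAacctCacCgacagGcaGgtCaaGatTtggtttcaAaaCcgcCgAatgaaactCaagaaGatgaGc
*Hoxc10* and *Hoxd10* shared 82.8% of these bases, *Hoxa10* and *Hoxc10* 80.6%, and *Hoxa10* and *Hoxd10* 78.9%. The longest run without a difference in these pairs was 16 bases. A homeobox was found in all 36 members, and over the 36 pairs of paralogs the identity was 72.8% to 93.9% (median 82.0%). The longest identical run was 47 bases, between *Hoxb3* and *Hoxd3*. The read length and the use of strand were not given in the sources used here. Reads inside such runs and reads of antisense transcripts of the clusters could therefore have been divided between genes or assigned to another gene. Exons annotated in GENCODE M21 overlapped on the same strand for *Hoxd3* and *Hoxd4* (388 bases) and for *Hoxc5* and *Hoxc10* (166 bases). The counts were made on RefSeq transcripts, and a read divided between genes would leave a fraction. Those of *Hoxc5*, *Hoxc10* and *Hoxd4* were whole numbers in every library, and those of *Hoxd3* in all except *Gpr174*-/Y replicate 3 (37.19). Reads assigned whole to another gene would not show in this way.

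The muscles carried an uneven Hox profile, in which group 10 held the largest share, most of it from *Hoxc10*. Levels of different genes were compared as FPKM, the fragment count scaled for transcript length and library size that the authors deposited. *Hoxc10* was the highest member, with 47.1, 43.4 and 37.5 FPKM in the WT and 30.4, 29.4 and 30.7 FPKM in the *Gpr174*-/Y replicates. It made up 32.2% ± 2.65 (SD, n = 3) of the summed Hox FPKM in WT muscle and 29.1% ± 1.14 (SD, n = 3) in *Gpr174*-/Y muscle. *Hoxd8* followed, with 15.7, 14.8 and 13.9 FPKM in the WT and 10.1, 9.52 and 9.93 FPKM in the *Gpr174*-/Y replicates. *Hoxa10* had 7.70, 8.49 and 8.10 FPKM in WT and 8.54, 7.57 and 7.45 FPKM in *Gpr174*-/Y muscle, and *Hoxc11* had 7.65, 7.52 and 7.60 FPKM in WT and 8.39, 8.47 and 6.50 FPKM in *Gpr174*-/Y muscle. These levels overlapped, so *Hoxa10* and *Hoxc11* were not ordered beyond their spread. *Hoxc9* came next, with 6.47, 7.02 and 7.53 FPKM in WT and 5.62, 5.29 and 5.71 FPKM in *Gpr174*-/Y muscle.

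The clusters contributed unequally. The Hoxc cluster held 53.0% ± 0.836 of the summed Hox FPKM in WT muscle and 52.6% ± 1.23 in *Gpr174*-/Y muscle (SD, n = 3), and the Hoxb cluster the smallest share, 7.32% ± 0.686 and 7.96% ± 0.35. Groups 9 to 13 together held 60.2% ± 1.62 of the sum in WT and 59.8% ± 0.341 in *Gpr174*-/Y muscle. Some genes at or near the ends of the clusters had levels near 0, while *Hoxc4*, the first gene of Hoxc, had a mean of 4.42 FPKM. *Hoxb1* and *Hoxd1* had at most 1 count in any library, *Hoxc12* at most 3 and *Hoxc13* at most 4. *Hoxd11* had 1, 4 and 6 counts in WT and 1 count in each *Gpr174*-/Y replicate. *Hoxa13*, a gene of the foot in the embryo, had 17, 17 and 8 counts in WT and 6, 4 and 5 counts in *Gpr174*-/Y muscle. The highest member was that of group 10 in Hoxa and Hoxc and that of group 8 in Hoxd, while the Hoxb genes of groups 2 to 8 lay between 0.807 and 1.78 mean FPKM.

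**Figure D1:**
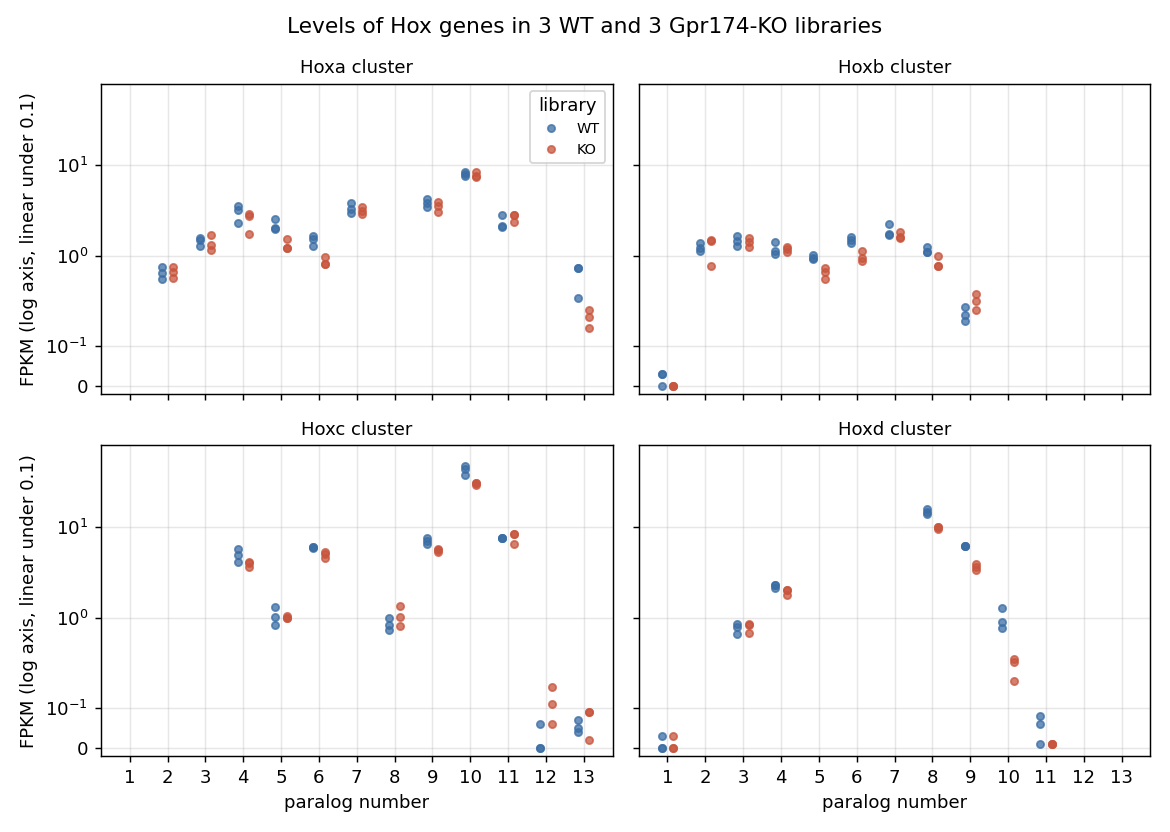
Level of 35 Hox genes in FPKM (vertical axis, logarithmic above 0.1) against its paralog number (horizontal axis), with 1 panel per cluster and 1 point per library, 3 WT and 3 *Gpr174*-/Y (KO). *Hoxc10*, at a mean of 36.4 FPKM, stands above the others, and *Hoxb1*, *Hoxc12*, *Hoxc13*, *Hoxd1* and *Hoxd11* lie under 0.1 mean FPKM.

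Hox transcripts were lower in *Gpr174*-/Y muscle, and no member was called higher. Of the 30 members kept by edgeR's low-count filter, 16 were lower and 0 higher at an adjusted p under 0.05 (edgeR's quasi-likelihood test, Benjamini-Hochberg adjustment over 14395 genes), and 14 did not pass. That is 53.3% of the tested members called lower, where 27.6% of all genes tested were called lower and 27.0% higher. The median log2 fold change was -0.40 over the tested members and 0.004 over all genes tested, and the estimate was below 0 for 28 of the 30. Every *Gpr174*-/Y library lay below every WT library for 22 of the 30 members and above it for 0, against 32.4% and 33.1% of all genes tested, 65.6% in either direction. When a log2 fold change beyond 1 in size was required as well, 3 members remained, *Hoxa6*, *Hoxd9* and *Hoxd10*, all lower. Of all genes tested, 8.28% passed both thresholds, 4.84% lower and 3.45% higher. The summed CPM of the 36 members was 308, 290 and 267 in WT and 201, 186 and 181 in *Gpr174*-/Y replicates 1, 2 and 3. In such bulk tissue, fewer cells with Hox transcripts and less Hox RNA per cell cannot be told apart. With replicates 1 and 3 of each group only, 0 members passed the adjusted threshold in edgeR, as did 0.0% of all genes tested in the lower direction, and 11 members had an unadjusted p under 0.05.

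The size of the difference varied along the clusters, and its median was lowest in Hoxd. The tested members called lower were 5 of 10 in Hoxa, 3 of 8 in Hoxb, 4 of 7 in Hoxc and 4 of 5 in Hoxd. The median log2 fold change was -0.38 in Hoxa, -0.38 in Hoxb, -0.40 in Hoxc and -0.87 in Hoxd. By paralog number, 2 of 10 tested members of groups 1 to 4 were called lower (median -0.32), 8 of 11 of groups 5 to 8 (median -0.68) and 6 of 9 of groups 9 to 13 (median -0.40). All 3 members of group 6 and all 3 of group 10 were called lower, and 0 of the 6 tested members of groups 1 to 3 and 0 of the 2 of group 11. A difference between these classes was not tested.

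**Figure D2:**
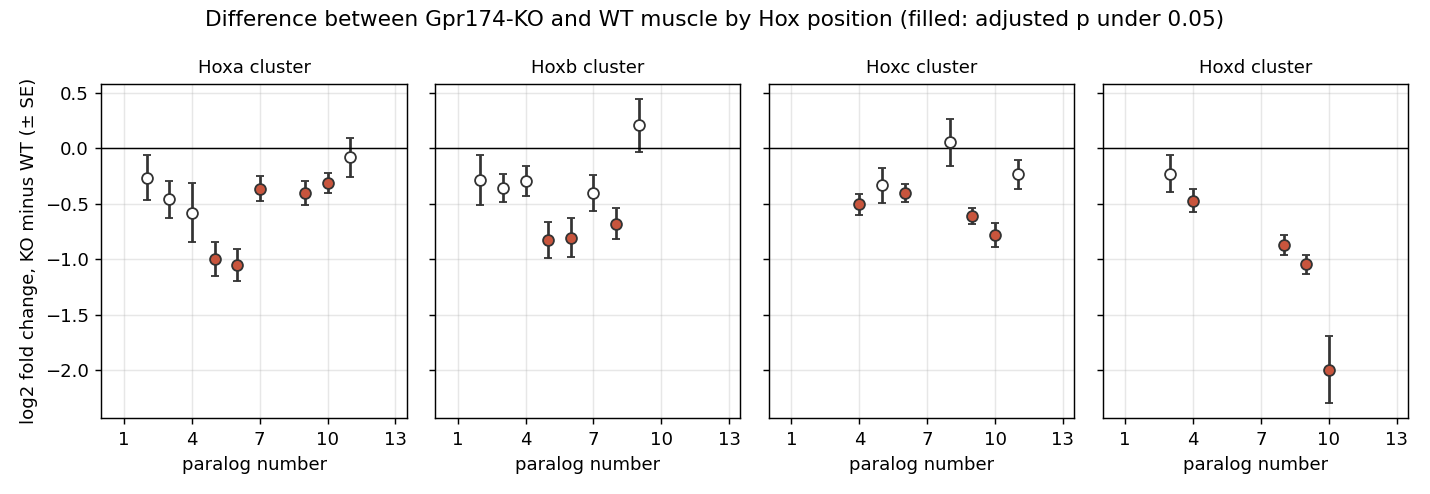
Difference between the genotypes (log2 fold change, *Gpr174*-/Y minus WT, vertical axis, bars ± SE) for 29 tested Hox genes against paralog number (horizontal axis), with 1 panel per cluster and filled points for an adjusted p under 0.05. In Hoxd the 5 estimates ran from -0.23 at *Hoxd3* to -1.99 at *Hoxd10*, and in Hoxa the lowest, -0.9985 and -1.05, were *Hoxa5* and *Hoxa6*.

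In the Hoxd cluster, whose genes of high number shape the limb, the tested members from *Hoxd8* to *Hoxd10* were the most reduced. *Hoxd10* had 2.61, 1.90 and 1.57 CPM in WT and 0.573, 0.612 and 0.326 CPM in *Gpr174*-/Y muscle, always in the order of replicates 1, 2 and 3, from 42, 32 and 28 against 12, 13 and 7 counts. All *Gpr174*-/Y libraries lay below all WT libraries, and the spread among the WT libraries was wide. Its log2 fold change was -1.99 (SE 0.302, edgeR, Benjamini-Hochberg adjusted p = 0.00235), the lowest of the tested members. *Hoxd9* had 14.6, 14.1 and 13.2 CPM in WT and 6.88, 6.22 and 7.21 CPM in *Gpr174*-/Y muscle. The groups were far apart next to their spread, and the log2 fold change was -1.04 (SE 0.0857, edgeR, Benjamini-Hochberg adjusted p = 0.000638). *Hoxd8* had 36.0, 32.7 and 29.1 CPM in WT and 18.5, 17.2 and 17.7 CPM in *Gpr174*-/Y muscle. WT replicate 1 was the highest and the groups did not overlap, with a log2 fold change of -0.87 (SE 0.0864, edgeR, Benjamini-Hochberg adjusted p = 0.000871). *Hoxd4* fell by 0.47 on the log2 scale (SE 0.103, edgeR, Benjamini-Hochberg adjusted p = 0.00856), and *Hoxd3*, with overlapping groups, had -0.23 (adjusted p = 0.29, same test). *Hoxd10* kept an adjusted p under 0.05 in 13 of 14 alternatives and *Hoxd9* in 14 of 15, all except the fit of replicates 1 and 3 (0.0567 and 0.0542). Without *Gpr174*-/Y replicate 2 the log2 fold change of *Hoxd9* was -0.99, short of the size threshold.

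The bases before the starts of these 3 neighbours and of *Hoxa6*, the other member past both thresholds, are shown because these genes fell together. They are the 250 bases upstream of the start in RefSeq (GRCm38.p6), 5′ to 3′ on the gene's strand. Capitals mark every match, on either strand, to the TATA box written as TATAAA, the GC box with the letters GGGCGG, the box named for its letters CCAAT, the core TAATTA that many homeodomains bind, and the joint Hox and Pbx site TGATNNAT. Matches that overlap run together.
*Hoxd8* (chr2:74704365-74704614, plus strand): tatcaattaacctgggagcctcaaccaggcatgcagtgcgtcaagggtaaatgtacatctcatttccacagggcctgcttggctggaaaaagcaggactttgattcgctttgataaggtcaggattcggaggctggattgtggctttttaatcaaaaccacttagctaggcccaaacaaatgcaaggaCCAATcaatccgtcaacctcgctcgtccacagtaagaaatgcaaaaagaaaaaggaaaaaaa
*Hoxd9* (chr2:74697513-74697762, plus strand): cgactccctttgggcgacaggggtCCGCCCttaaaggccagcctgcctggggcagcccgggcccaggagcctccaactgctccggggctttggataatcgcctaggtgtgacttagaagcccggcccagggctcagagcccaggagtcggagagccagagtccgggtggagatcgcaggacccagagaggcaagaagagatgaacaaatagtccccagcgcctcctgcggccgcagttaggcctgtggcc
*Hoxd10* (chr2:74691641-74691890, plus strand): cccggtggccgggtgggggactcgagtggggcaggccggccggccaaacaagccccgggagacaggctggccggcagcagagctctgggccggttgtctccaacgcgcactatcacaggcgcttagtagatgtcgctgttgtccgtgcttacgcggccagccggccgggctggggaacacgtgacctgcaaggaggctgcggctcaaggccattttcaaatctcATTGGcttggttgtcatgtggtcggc
*Hoxa6* (chr6:52208673-52208922, minus strand): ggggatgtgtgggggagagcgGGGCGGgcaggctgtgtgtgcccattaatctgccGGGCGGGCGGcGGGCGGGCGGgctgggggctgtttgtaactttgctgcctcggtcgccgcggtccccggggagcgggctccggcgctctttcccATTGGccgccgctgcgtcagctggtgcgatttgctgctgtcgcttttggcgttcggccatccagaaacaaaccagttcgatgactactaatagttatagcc
*Hoxd8* and *Hoxd10* each held 1 CCAAT match, 62 and 26 bases before the start when counted from the first base of the match, *Hoxd9* held 1 GC box 226 bases before it, and *Hoxa6* held 5 GC boxes and 1 CCAAT match. No motif of the set was in all 4 windows. Windows were at hand for 20 of the 36 members (22 windows). CCAAT was in 12 of these 22 and in 33.8% of 32851 windows of all genes, the GC box in 9 and in 32.7%, TATAAA in 3 and in 12.4%, TGATNNAT in 4 and in 7.68%, and TAATTA in 2 and in 4.84%. Of the 12 windows of members called lower, 7 held CCAAT, 6 the GC box, 3 TATAAA, 1 TGATNNAT and 0 TAATTA. The base composition also varied, with 44.4% G and C in the *Hoxd8* window and 65.6% in that of *Hoxd10*, against a median of 52.4% over all windows. A match is a description of these letters and not of binding.

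Of the tested members of the Hoxc cluster, *Hoxc10* and *Hoxc9* were the most reduced. *Hoxc10*, a gene of the hindlimb and lower trunk in the embryo, had 101, 89.5 and 73.6 CPM in WT and 52.6, 50.0 and 51.0 CPM in *Gpr174*-/Y muscle. The *Gpr174*-/Y libraries lay close together and below the lowest WT library, replicate 3. The means were 87.9 ± 13.6 and 51.2 ± 1.33 CPM (SD, n = 3), a log2 fold change of -0.78 (SE 0.11, edgeR, Benjamini-Hochberg adjusted p = 0.00193). *Hoxc9* had 12.4, 12.975 and 13.2 CPM in WT and 8.70, 8.05 and 8.51 CPM in *Gpr174*-/Y muscle, with a log2 fold change of -0.61 (SE 0.0703, edgeR, Benjamini-Hochberg adjusted p = 0.00119). Its groups did not overlap. *Hoxc4* had 10.2, 11.01 and 12.3 CPM in WT and 8.17, 7.39 and 8.09 CPM in *Gpr174*-/Y muscle, and its log2 fold change was -0.50 (SE 0.0942, edgeR, Benjamini-Hochberg adjusted p = 0.0049). *Hoxc6*, a gene of the trunk, fell by 0.40 (SE 0.0787, edgeR, Benjamini-Hochberg adjusted p = 0.00559). *Hoxc11*, the group 11 member with the highest level, had 7.59, 7.20 and 6.91 CPM in WT and 6.74, 6.69 and 5.02 CPM in *Gpr174*-/Y muscle, with a log2 fold change of -0.23 (SE 0.132, edgeR, Benjamini-Hochberg adjusted p = 0.172). *Hoxc5* had -0.33 and *Hoxc8* 0.06, and neither passed the test.

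Among the tested genes of the Hoxa cluster, the middle genes *Hoxa5* and *Hoxa6* had the lowest estimates. *Hoxa6* had 3.92, 3.10 and 3.82 CPM in WT and 1.67, 1.65 and 1.91 CPM in *Gpr174*-/Y muscle, and the groups did not overlap. Its log2 fold change was -1.05 (SE 0.146, edgeR, Benjamini-Hochberg adjusted p = 0.00186), and it was -0.98 without WT replicate 1, short of the size threshold. *Hoxa5*, known for its part in the lung and the neck, had 4.29, 4.05 and 4.94 CPM in WT and 2.63, 2.03 and 2.0 CPM in *Gpr174*-/Y muscle. The highest *Gpr174*-/Y library, replicate 1, was below the lowest WT library, with a log2 fold change of -0.9985 (SE 0.153, edgeR, Benjamini-Hochberg adjusted p = 0.00246). The estimates of the tested genes from *Hoxa7* to *Hoxa11* were smaller. *Hoxa10* had 20.04, 21.2 and 19.3 CPM in WT and 18.3, 15.7 and 14.7 CPM in *Gpr174*-/Y muscle, with a log2 fold change of -0.31 (SE 0.0926, edgeR, Benjamini-Hochberg adjusted p = 0.0263). *Hoxa7* and *Hoxa9* fell by 0.36 and 0.40 (edgeR, Benjamini-Hochberg adjusted p = 0.0305 and 0.0196). *Hoxa7*, *Hoxa9* and *Hoxa10* kept the call in the fewest of 15 alternatives, 6, 8 and 8. *Hoxa7* lost the call without WT replicate 2 or without *Gpr174*-/Y replicate 1 or 2, *Hoxa9* without replicate 2 of either group, and *Hoxa10* without replicate 2 of either group or *Gpr174*-/Y replicate 3 (edgeR, Benjamini-Hochberg adjusted p between 0.0618 and 0.129 over these fits). *Hoxa13*, removed by the filter, had a log2 fold change of -1.78 (SE 0.42, edgeR without the filter, Benjamini-Hochberg adjusted p = 0.0112).

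The Hoxb genes were low, and those of groups 5, 6 and 8 were reduced. *Hoxb5* had 1.99, 1.90 and 1.97 CPM in WT and 1.15, 1.22 and 0.930 CPM in *Gpr174*-/Y muscle, with a log2 fold change of -0.83 (SE 0.159, edgeR, Benjamini-Hochberg adjusted p = 0.00528). *Hoxb6* had 2.61, 2.56 and 2.02 CPM in WT and 1.58, 1.32 and 1.21 CPM in *Gpr174*-/Y muscle, with a log2 fold change of -0.80 (SE 0.175, edgeR, Benjamini-Hochberg adjusted p = 0.00829). *Hoxb8*, a gene used in blood progenitors as well as in the trunk, had 2.80, 2.68 and 2.98 CPM in WT and 1.62, 1.65 and 2.0 CPM in *Gpr174*-/Y muscle, with a log2 fold change of -0.68 (SE 0.139, edgeR, Benjamini-Hochberg adjusted p = 0.00649). In none of the 3 did the groups overlap, though *Hoxb5* rested on 20 to 35 counts per library. *Hoxb9* was the member with the highest estimate, 0.21, from 9 to 19 counts and with overlapping groups (edgeR, Benjamini-Hochberg adjusted p = 0.586). *Hoxb3* lay at the threshold, with -0.35 (edgeR, Benjamini-Hochberg adjusted p = 0.0501), and passed it without WT replicate 1 (0.0467) and without *Gpr174*-/Y replicate 1 (0.0386).

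**Figure D3:**
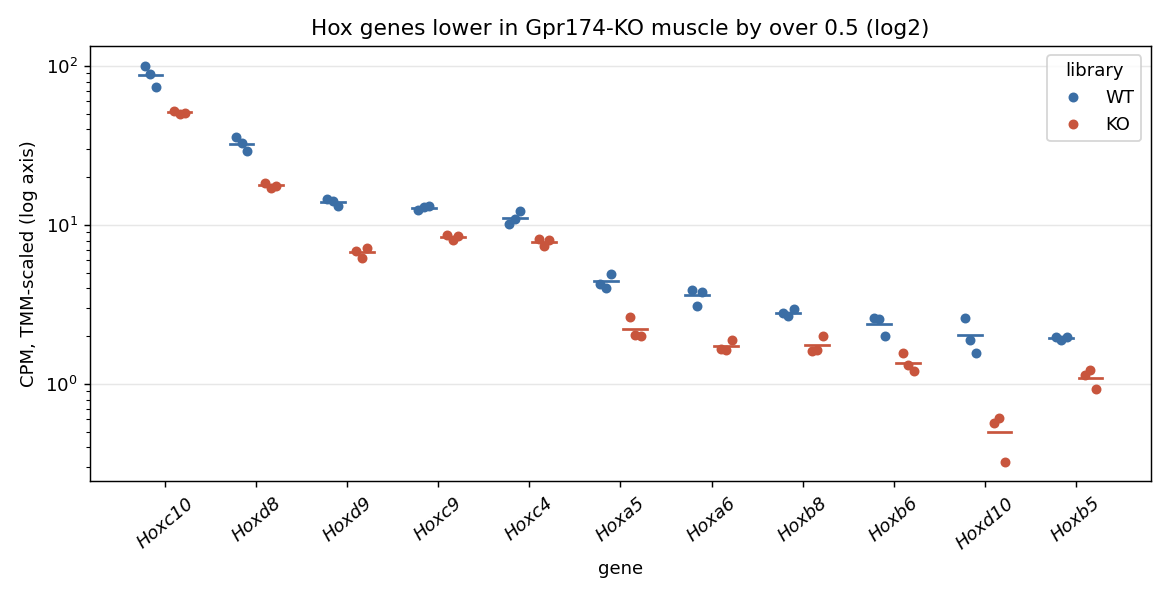
TMM-scaled CPM (logarithmic vertical axis) of the 11 Hox genes called lower by more than 0.5 on the log2 scale, with 1 point per library and a bar at the mean of the 3 libraries of each group. In each of the 11 genes the 3 *Gpr174*-/Y (KO) libraries lie below the 3 WT libraries, and *Hoxd10* shows the widest distance, with means of 2.03 and 0.504 CPM.

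Of the 14 tested members that did not pass, 12 had estimates below 0, between -0.58 for *Hoxa4* and -0.08 for *Hoxa11*. *Hoxa4* varied within both groups, with 6.04, 5.30 and 3.60 CPM in WT and 4.01, 3.67 and 2.28 CPM in *Gpr174*-/Y muscle, and its groups overlapped (SE 0.264, edgeR, Benjamini-Hochberg adjusted p = 0.103). Without WT replicate 3 its log2 fold change was -0.76 (edgeR, Benjamini-Hochberg adjusted p = 0.0153). *Hoxa11*, which patterns the lower limb segment, had 7.22, 5.24 and 4.89 CPM in WT and 5.88, 5.79 and 4.70 CPM in *Gpr174*-/Y muscle, with WT replicate 1 above all others (SE 0.174, edgeR, Benjamini-Hochberg adjusted p = 0.719).

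The change was unequal among the Hox genes, which ratios of counts within a library show without any scaling between libraries. *Hoxd9* was counted 2.42, 2.21 and 2.2 times as often as *Hoxd4* in WT and 1.45, 1.35 and 1.82 times in *Gpr174*-/Y muscle. The ratio of *Hoxd8* to *Hoxd4* was 5.96, 5.13 and 4.84 in WT and 3.92, 3.72 and 4.48 in *Gpr174*-/Y muscle, and that of *Hoxd10* to *Hoxd4* was 0.433, 0.299 and 0.262 in WT and 0.121, 0.133 and 0.0824 in *Gpr174*-/Y muscle. In all 3 ratios every *Gpr174*-/Y library lay below every WT library. The ratio of *Hoxd9* to *Hoxd8* overlapped between the groups, with 0.407 in WT replicate 1 and in *Gpr174*-/Y replicate 3. Within group 10, *Hoxc10* was counted 5.02, 4.21 and 3.82 times as often as *Hoxa10* in WT and 2.87, 3.18 and 3.46 times in *Gpr174*-/Y muscle. The ratio of *Hoxd10* to *Hoxa10* was 0.130, 0.0896 and 0.0816 in WT and 0.0313, 0.0389 and 0.0221 in *Gpr174*-/Y muscle. Group 10 was therefore carried less by *Hoxc10* and *Hoxd10*, relative to *Hoxa10*, in every *Gpr174*-/Y library. Of the 16 ratios computed, those of *Hoxd9* to *Hoxd8*, *Hoxc9* to *Hoxa9*, *Hoxa5* to *Hoxa4* and *Hoxd8* to *Hoxb8* overlapped between the groups, and the other 12 were lower in each *Gpr174*-/Y library. The 16 pairs were picked, and in each the first gene had the lower log2 fold change. Their common direction therefore follows from the fold changes above, and no share over other pairs of genes was computed. An exact permutation test of 3 against 3 libraries cannot go below p = 0.1 (2-sided), so a single ratio could not pass 0.05 in that test, and no other test of the ratios was run.

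**Figure D4:**
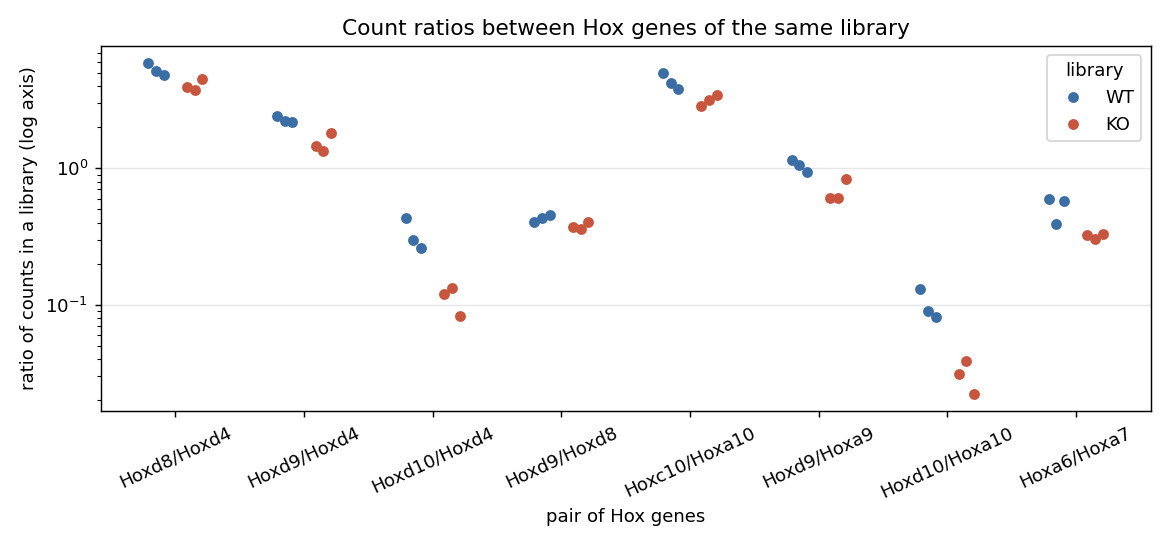
Ratio of the counts of 2 Hox genes in the same library (logarithmic vertical axis) for 8 pairs, with 1 point per library. The 3 *Gpr174*-/Y (KO) points lie below the 3 WT points in each pair except *Hoxd9* to *Hoxd8*, where they meet at 0.407.

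The shares of the summed FPKM differed between the genotypes for some clusters and groups and overlapped for others. The Hoxd cluster made up 19.2%, 18.8% and 18.7% of it in WT and 15.7%, 15.7% and 16.3% in *Gpr174*-/Y muscle, and the Hoxa cluster 20.3%, 20.8% and 21.1% in WT and 24.8%, 23.8% and 22.2% in *Gpr174*-/Y muscle. Neither pair of groups overlapped. Group 11, whose tested members were not called, made up 7.55% ± 0.219 of the sum in WT and 10.1% ± 1.18 in *Gpr174*-/Y muscle (SD, n = 3). The shares of groups 7 and 8 did not overlap either. Nor did that of group 12, which rests on *Hoxc12* alone, with 1, 0 and 0 counts in WT and 1, 2 and 3 in *Gpr174*-/Y muscle, too few to read a difference from. Those of the Hoxb and Hoxc clusters, of group 10 and of groups 9 to 13 together overlapped between the genotypes, as did that of *Hoxc10* alone, with 34.6%, 32.7% and 29.4% in WT and 28.1%, 28.7% and 30.3% in *Gpr174*-/Y muscle.

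The calls depend on how the libraries are scaled. With total counts in place of TMM, the median of all genes tested was 0.277 and that of the tested Hox genes -0.13, which is -0.41 relative to all genes. Another scaling moves nearly every gene by the same amount, so that distance could hardly change. Under that scaling 9 members were called lower and 0 higher (edgeR, Benjamini-Hochberg adjusted), namely *Hoxa5*, *Hoxa6*, *Hoxb5*, *Hoxb6*, *Hoxc9*, *Hoxc10*, *Hoxd8*, *Hoxd9* and *Hoxd10*, where 14.0% of all genes tested were called lower. *Hoxd10* alone passed both thresholds, at -1.72. *Hoxa7*, *Hoxa9*, *Hoxa10*, *Hoxb8*, *Hoxc4*, *Hoxc6* and *Hoxd4* lost the call, with estimates between -0.41 and -0.04, and *Hoxa2*, *Hoxa11*, *Hoxc11* and *Hoxd3* turned to estimates between 0.01 and 0.20 that were not called.

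**Figure D5:**
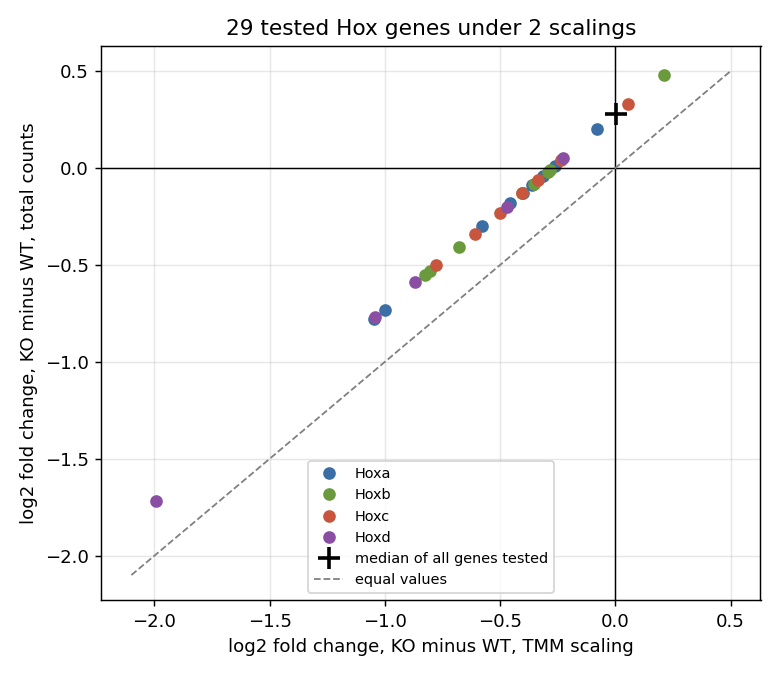
Log2 fold change (*Gpr174*-/Y minus WT) of 29 tested Hox genes with TMM scaling (horizontal axis) and with total counts (vertical axis), with 1 point per gene in the colour of its cluster, a dashed line of equal values and a cross at the median of all genes tested. The points lie above the line by about as much as the cross, which is at 0.004 and 0.277, since another scaling moves nearly every gene by the same amount.

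RNA of markers of several cell types differed between the groups, and the marker lists are given beside the Hox results. In bulk tissue, a different number of such cells and a different RNA level per cell cannot be told apart. Among all genes tested, 27.6% were called lower and 27.0% higher, the shares to set beside each list. All 10 markers of mature muscle fibres were called lower in *Gpr174*-/Y muscle, and their summed CPM was 119300 to 170000 in WT and 51680 to 58330 in *Gpr174*-/Y libraries. Of 6 endothelial markers 5 were lower and 1 higher, with sums of 816.9 to 973.7 and 536.5 to 603.4. Of 8 markers of muscle stem cells and myoblasts 6 were higher (877.5 to 2303 against 2799 to 2943), of 6 macrophage markers 5 (1010 to 1456 against 2423 to 2431), and of 8 fibroblast markers 3 were higher and 4 lower (12140 to 17140 against 20940 to 23990). Of 6 tendon markers 2 were higher and 3 lower, with sums of 902.6 to 1104 and 1141 to 1172. Of 5 adipocyte markers 2 were higher and 1 lower (375 to 392.9 against 247.5 to 285.4), of 5 Schwann cell markers 1 was lower and 0 higher (113.6 to 143.9 against 106.5 to 129.3), and of 5 tested bone and cartilage markers 2 were higher and 1 lower (20.85 to 30.06 against 50.52 to 53.07). The 4 skin markers summed to 3.315 to 4.226 and 2.389 to 3.296 CPM, and the 1 of them that was tested was not called. No marker was at 0 in all libraries. The part of these differences in the lower Hox counts was not tested. A sum follows its most abundant genes, and for the adipocyte, fibroblast and tendon lists it moved against the larger number of calls.

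The limb-type genes were those of a hindlimb. *Tbx4*, the T-box factor of the hindlimb, had 16.6, 17.1 and 14.9 CPM in WT and 14.9, 14.8 and 15.1 CPM in *Gpr174*-/Y muscle, with overlapping groups (log2 fold change -0.12, edgeR, Benjamini-Hochberg adjusted p = 0.194). *Tbx5*, its forelimb counterpart, had 0 counts in the WT libraries and 1, 0 and 2 counts in the *Gpr174*-/Y libraries, all under the 3 counts taken as detectable. *Pitx1*, which acts upstream of *Tbx4*, had 1.31, 1.85 and 2.02 CPM in WT and 2.63, 2.68 and 2.47 CPM in *Gpr174*-/Y muscle. It rose by 0.58 (SE 0.175, edgeR, Benjamini-Hochberg adjusted p = 0.0278), and lost the call without any 1 of WT replicates 1 and 2 and the 3 *Gpr174*-/Y replicates (0.0533 to 0.0954).

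In the list of 26 limb patterning genes, 21 were tested, 4 were lower and 4 higher, and 13 did not pass (median -0.07). Of all genes tested, 54.6% were called in either direction. *Gli3*, a transcription factor of hedgehog signalling, had 11.9, 10.7 and 13.3 CPM in WT and 18.6, 18.8 and 19.5 CPM in *Gpr174*-/Y muscle, and rose by 0.67 (SE 0.0855, edgeR, Benjamini-Hochberg adjusted p = 0.00148). *Tbx2*, a T-box repressor, fell by 0.52 (SE 0.0768, edgeR, Benjamini-Hochberg adjusted p = 0.00215), and *Msx1*, a homeobox gene of the growing limb bud, fell by 0.48 (SE 0.0813, edgeR, Benjamini-Hochberg adjusted p = 0.00333). *Tbx3* and *Tbx15* were also lower, and *Osr1* and *Prrx2* higher. With total counts, where the median of all genes was 0.277, 1 gene of the list was lower and 7 higher.

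Hox proteins bind DNA together with cofactors of the Pbx, Meis and Pknox families, and 8 of the 9 listed were tested. *Pknox2* fell by 0.48 (SE 0.117, edgeR, Benjamini-Hochberg adjusted p = 0.0133), while *Pbx3* rose by 0.40 (SE 0.0865, adjusted p = 0.00821, same test) and *Pbx2* by 0.22 (SE 0.0684, adjusted p = 0.0329, same test). The other 5 did not pass, and of all genes tested 54.6% were called in either direction. With total counts 0 cofactors were lower and 6 higher, where 14.0% of all genes tested were lower and 50.7% higher, and *Pknox2* was at -0.20. *Pknox2* also lost the call without replicate 2 of either group (0.0511 and 0.0508), and *Pbx2* without any library except WT replicate 3.

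The Polycomb and trithorax proteins hold Hox clusters silent or active, and of 22 such regulators tested, 3 were lower, 3 higher and 16 did not pass (median 0.03), against 54.6% of all genes tested called in either direction. *Ezh2*, the methyltransferase of Polycomb repressive complexes in dividing cells, rose by 0.43 (SE 0.0708, edgeR, Benjamini-Hochberg adjusted p = 0.00312), with 9.64, 9.999 and 10.7 CPM in WT and 14.05, 13.2 and 13.6 CPM in *Gpr174*-/Y muscle. *Jarid2*, which helps to recruit that complex, fell by 0.49 (SE 0.0874, edgeR, Benjamini-Hochberg adjusted p = 0.00395), and *Pcgf2*, of the other Polycomb complex, rose by 0.31 (SE 0.0681, edgeR, Benjamini-Hochberg adjusted p = 0.00858). The remaining genes called, named here after their values were seen, were *Ezh1* and *Cbx7*, lower, and *Phc1*, higher. Their log2 fold changes were -0.41, -0.51 and 0.21 (edgeR, Benjamini-Hochberg adjusted p = 0.0166, 0.0332 and 0.0188). With total counts, which moved the median of all genes to 0.277, 1 regulator was lower and 16 higher.

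Retinoic acid, made from vitamin A, switches on Hox genes in the embryo, and 15 of the 18 genes listed for its synthesis, binding, breakdown and reception were tested. Of these 7 were higher, 3 lower and 5 did not pass (median 0.21), where 27.0% of all genes tested were higher and 27.6% lower. *Aldh1a2*, the main enzyme of its synthesis in the embryo, had 20.3, 17.0 and 14.9 CPM in WT and 32.2, 31.5 and 30.7 CPM in *Gpr174*-/Y muscle, and rose by 0.86 (SE 0.108, edgeR, Benjamini-Hochberg adjusted p = 0.00144). *Rdh10*, which catalyses the step before it, rose by 0.50 (SE 0.0793, edgeR, Benjamini-Hochberg adjusted p = 0.00279). Both genes had every *Gpr174*-/Y library above every WT library. The 3 lower genes, named here after their values were seen, were *Aldh1a1*, another enzyme of the synthesis, with -0.95, and the receptors *Rarb* and *Rxrg*, with -0.70 and -0.72 (edgeR, Benjamini-Hochberg adjusted p = 0.0132, 0.00549 and 0.0179), and each had every *Gpr174*-/Y library below every WT library. Among the higher genes, 2 passed both thresholds and are also named after their values were seen. *Cyp26b1*, listed for the breakdown, rose by 1.34 and *Crabp1*, listed for the binding, by 1.90 (edgeR, Benjamini-Hochberg adjusted p = 0.00747 and 0.0173). With total counts 2 genes of the list were lower and 10 higher, under the same shift of all genes. Of the neighbouring homeobox genes at the ends of the clusters, *Evx1* had 1 count in *Gpr174*-/Y replicate 3 and 0 in the other libraries.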

How the data were processed

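RNA from ischemic gastrocnemius of 3 WT and 3 *Gpr174*-/Y mice was sequenced on a BGISEQ instrument, per the study's methods, while the labels name an Illumina kit. The authors deposited 1 table with expected counts (estimated reads per RefSeq transcript, not normalized), FPKM and TPM per library. The submitters' processing notes name HISAT2 2.0.4, Bowtie2 2.2.5, RSEM 1.2.12 and GRCm39 without their roles. TPM and the authors' group means were not used. The authors' expected counts and FPKM were summed per Entrez gene (18089 genes, 99.7% with a symbol), and counts were rounded.

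Groups were compared with edgeR 4.0.16 in R 4.3.3 (TMM, filterByExpr, robust quasi-likelihood test, Benjamini-Hochberg adjustment over 14395 genes). Only the thresholds, 0.05 and an absolute log2 fold change of 1, were those of the study, whose methods name DEGseq as the test. The common dispersion was 0.00967. The fits were tested on simulated counts with 200 changed genes, in both directions. Far more genes were called in these data, so that simulation does not test the choice of scaling. Alternatives were DESeq2 1.42.0 (size factors, Wald test), total counts, no filter or a stricter one (10 counts in each library), limma 3.58.1 on log2(FPKM + 0.1) and log2(FPKM + 1), a replicate block, leaving out each library, and replicates 1 and 3 only. Values per library are given for members called at 0.05 whose log2 fold change exceeds 0.5 in size and for the 5 with the highest mean FPKM. Of the other lists, *Pitx1*, *Tbx4*, *Tbx5* and up to 3 genes with the lowest adjusted p are named with values. Some items are not reported here. Values given for further members and listed genes were chosen after they were seen. The members and lists were chosen with earlier results of these data known. Promoter windows are from RefSeq and homeoboxes from GENCODE M21, both on GRCm38, a build other than that named by the submitters, so coordinates are given only for the promoter windows shown, on GRCm38. Figures used Python 3.11.15 and matplotlib 3.10.9.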

Additional observations from a re-analysis of the deposited data

How the results depend on the processing

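No member was called higher under any alternative. The 16 members called lower gave 239 values over the alternatives, of which 195 stayed past the threshold, 44 kept their direction without passing it and 0 turned. Another 13 tested members, not called, gave 194 values, of which 15 turned. The count of 16 was 17 with DESeq2 size factors, 17 without the filter, 15 with at least 10 counts in every library, 15 with DESeq2's Wald test, 12 and 12 with limma on log2(FPKM + 0.1) and log2(FPKM + 1), 9 with total counts, 13 to 19 without 1 library, and 0 with replicates 1 and 3 only (11 at an unadjusted p under 0.05). The 3 members past both thresholds became 1 with total counts, 0 with log2(FPKM + 1), 0 with replicates 1 and 3, and 3 to 5 without 1 library (5 without *Gpr174*-/Y replicate 1). The cause of these changes was not tested. The median of -0.40 was -0.13 with total counts, -0.17 with log2(FPKM + 0.1), -0.11 with log2(FPKM + 1), and between -0.53 (without *Gpr174*-/Y replicate 1) and -0.37 without 1 library. The median of all genes tested was 0.277, 0.262 and 0.181 in the first 3 of these.

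The 3 cofactors called became 6 with total counts, 6 and 6 with limma on FPKM, 1 to 3 without 1 library (1 without replicate 2 of either group) and 0 with replicates 1 and 3. The 8 limb genes became 5 with the replicate block, 4 to 9 without 1 library (4 without *Gpr174*-/Y replicate 2, 5 without WT replicate 2 or *Gpr174*-/Y replicate 1) and 0 with replicates 1 and 3. The 6 chromatin regulators became 17 with total counts, 15 and 15 with limma on FPKM, 3 to 9 without 1 library (3 without replicate 2 of either group) and 0 with replicates 1 and 3. The 10 retinoic acid genes became 6 to 13 without 1 library (6 without WT replicate 2 or *Gpr174*-/Y replicate 1) and 0 with replicates 1 and 3. Unadjusted p under 0.05 was left for 2, 3, 2 and 7 genes of these lists with replicates 1 and 3.

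Estimates that turned, none of them called, were given by total counts, log2(FPKM + 0.1) and log2(FPKM + 1) in that order for *Hoxa2* (0.01, 0.01, 0.01), *Hoxa11* (0.20, 0.20, 0.14), *Hoxc11* (0.04, 0.03, 0.02), *Hoxd3* (0.05, 0.04, 0.02) and *Tbx4* (0.16, 0.15, 0.13). Without *Gpr174*-/Y replicate 3, *Hoxa11* was at 0.02 and *Hoxc8* at -0.14, without WT replicate 1 *Hoxa11* was at 0.12 (leaving out 1 library, *Hoxa11* ran from -0.18 to 0.12 and *Hoxc8* from -0.14 to 0.20). The cause was not tested.

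Samples of both groups carry the same replicate numbers, which the labels tie to nothing. Their deviations from the group means correlated at -0.006, 0.073 and -0.017 for numbers 1, 2 and 3 (11392 genes). Such a correlation cannot exclude a shared litter or batch that moved only some of the genes. With the replicate block 16 members were called lower, 14 of them among the 16 called without it. The block removed the calls of *Hoxa7* and *Hoxa9*. Outside the Hox genes it removed those of *Pitx1* and *Pbx2* and of further genes that are not singled out here. The limb list went from 8 to 5 genes called and the retinoic acid list from 10 to 7. Depth limits the members under about 1 CPM.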
